A study of Homo sapiens with 12 samples.

Results

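The sites described here were pairs of histone-modification peaks in HepG2 cells, each made of 1 H3K27ac peak and 1 H3K4me1 peak that shared at least 1 bp, with no H3K4me3 peak overlapping either. Of 73611 overlapping pairs of H3K27ac and H3K4me1 peaks on chromosomes 1 to 22 and X, 41442 met that rule, and the other 32169 touched H3K4me3. The 41442 pairs were formed by 36348 H3K27ac peaks, 54.6% of the 66513 in the list, and by 33583 H3K4me1 peaks, 18.4% of 182592. The rule used overlap and H3K4me3 only and set no limit on strength or width. It was not neutral, since overlap tied edges and summits to the widths of the partners, and a wider peak had more room to overlap another. Leaving out H3K4me3 also removed many of the strongest H3K27ac peaks.

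H3K4me1 is a single methyl group on lysine 4 of histone H3, placed at enhancers by the MLL3 and MLL4 methyltransferases, and it is found both at enhancers in use and at enhancers in waiting. H3K27ac is an acetyl group on lysine 27 of the same histone, placed by the coactivators p300 and CBP, and it marks active enhancers and active promoters. H3K4me3 is the form of lysine 4 methylation typical of active promoters, where H3K4me1 tends to lie on the flanks, so a pair of H3K27ac and H3K4me1 without H3K4me3 is the usual chromatin picture of an active distal enhancer.

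HepG2 is a human cell line established from a liver tumour, and the labels named no treatment or genetic change. The study immunoprecipitated sonicated chromatin for H3K27ac, H3K4me1 and H3K4me3, with 3 libraries for each mark and 3 control libraries, 12 in all in 4 groups. For each mark a single list of peaks had been deposited, pooled over the 3 libraries going by its name. The titles of the controls read input but their antibody field gave anti-mouse IgG, and they were not used here.

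Because replicates were pooled, no value below has a spread between cultures and no difference was tested. Shares carry a 95% Wilson interval and medians a 95% order-statistic interval, which reflect counting error alone and take neighbouring pairs as independent. Standard deviations (SD) are over the 23 chromosomes, which are not replicates. The number of reads behind each list is unknown.

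The most frequent arrangement was H3K27ac within H3K4me1. In 20739 of the 41442 pairs (50.04%, 49.6 to 50.5) the whole H3K27ac peak sat between the edges of its H3K4me1 partner, with an SD of 6.50 percentage points over chromosomes. The opposite nesting, H3K4me1 wholly within H3K27ac, was found in 5858 pairs (14.1%, 13.8 to 14.5). The remaining 14845 pairs (35.8%, 35.4 to 36.3) were staggered, each peak running past the other on 1 side. No pair had the same edges on both sides. Among the stronger 50% of each list, and with the same number of peaks taken from each list, staggered pairs were the most frequent class, at 43.2% and 40.1% against 35.0% and 39.2% with H3K27ac inside.

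The H3K4me1 peak was the wider one in most pairs. The median width was 1486 bp for H3K4me1 (quartiles 805 and 2496 bp) and 689 bp for H3K27ac (380 and 1711 bp), and the median pair had an H3K4me1 peak 1.74-fold as wide as the H3K27ac peak. H3K27ac was the wider peak in 12040 pairs (29.1%, 28.6 to 29.5). The shared stretch had a median of 503 bp, and the median share of a peak that lay in it was 100% for H3K27ac and 46.0% for H3K4me1. Summed over peaks, the shared 34.6 Mb made up 88.5% of the 39.1 Mb under paired H3K27ac peaks and 61.1% of the 56.7 Mb under paired H3K4me1 peaks.

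Where H3K4me1 enclosed H3K27ac, the shorter of its overhangs had a median of 268 bp and the longer one 937 bp. Sorting the overhangs by length makes them unequal at any placement, so these values give the size of the margins and not an off-centre position. These were narrow H3K27ac peaks, with a median of 466 bp, in wide H3K4me1 peaks of 2011 bp. Where H3K27ac enclosed H3K4me1, the overhangs were 157 and 1054.5 bp, from H3K27ac peaks with a median of 2457.5 bp around H3K4me1 peaks of 781.5 bp. In staggered pairs H3K27ac ran past H3K4me1 by a median of 216 bp at its own end and H3K4me1 past H3K27ac by 372 bp, and the H3K27ac overhang was the longer in 41.6%.

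Neither direction along the chromosome stood out. Among staggered pairs H3K27ac lay on the lower-coordinate side in 49.4% (48.6 to 50.2). H3K4me1 reached further on the lower-coordinate side in 68.1% of all pairs and on the higher-coordinate side in 67.7%. Shared boundaries were uncommon, since the edges of the partners came within 50 bp of each other in 10.5% of pairs on one side, in 10.4% on the other and in 1.38% on both.

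The strengths of partners were only loosely related. Strength was read from the authors' own signal value of each peak, as its percentile among all peaks of the same mark on chromosomes 1 to 22 and X, with 100 the strongest. The lists differ in length, so a percentile places a peak within its own mark and says nothing about which mark was more abundant. Paired H3K4me1 peaks stood high in their list, with a median percentile of 76.6, while paired H3K27ac peaks stood near the middle of theirs at 46.2. H3K4me1 peaks at percentile 75 or above supplied 52.3% of pairs and those below percentile 25 supplied 9.09%, whereas H3K27ac peaks at percentile 75 or above supplied 14.3% and those below percentile 25 supplied 25.6%. Many of the strongest H3K27ac peaks overlapped H3K4me3 and so formed no pair here: the 21074 that did had a median percentile of 81.5 and a median width of 1817 bp.

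Spearman's rho between the 2 percentiles over the 41442 pairs was 0.17, with values of 0.12 to 0.28 on single chromosomes. Pairs that share a peak are not independent, and signal value also rose with width within each mark, with a rho of 0.84 for H3K27ac and 0.75 for H3K4me1. Across 5 bands of H3K27ac width the rho between partners was 0.04 to 0.13. Among the 19213 pairs whose peaks had no other partner it was 0.38 for signal value and 0.46 for width. For signal value it was 0.36 where 1 H3K27ac peak lay over several H3K4me1 peaks, 0.18 where several H3K27ac peaks lay on 1 H3K4me1 peak and 0.27 in chains of several of each, against 0.17 over all pairs. The rho was thus highest among sole partners and lowest where several H3K27ac peaks lay on 1 H3K4me1 peak. The correlations are descriptions of 1 pooled list for each mark.

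**Figure D1:**
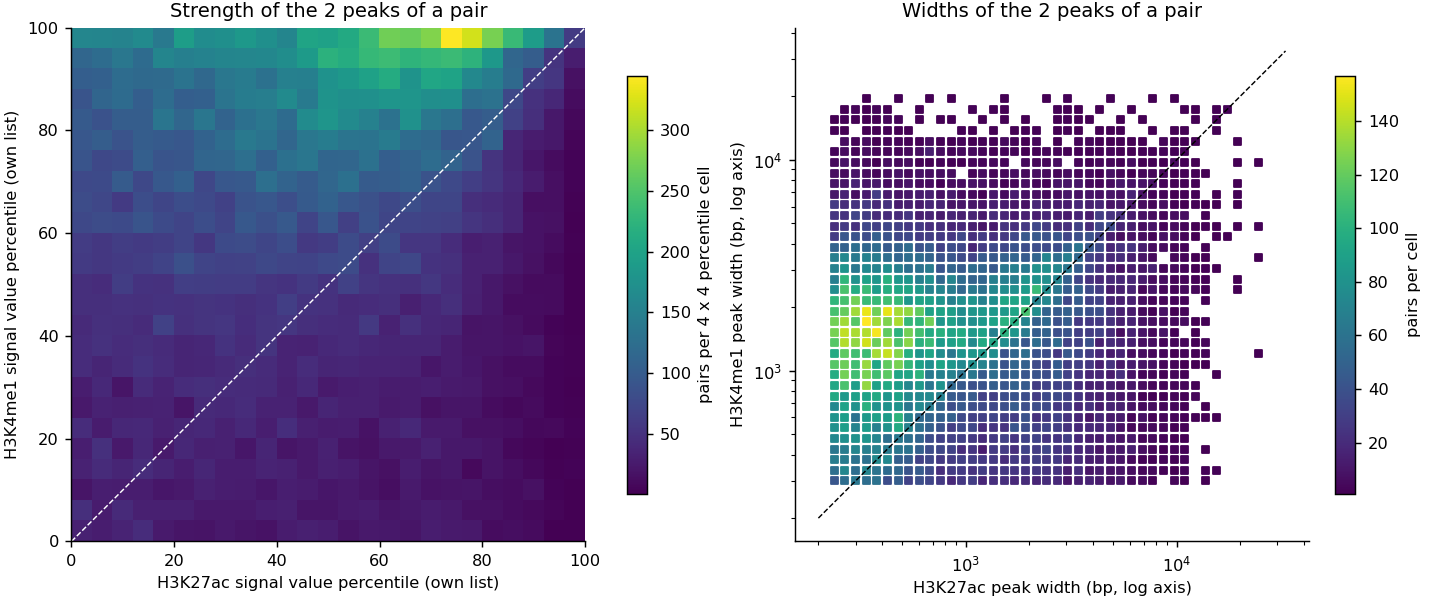
Pairs counted by the signal value percentiles of their H3K27ac peak (horizontal) and H3K4me1 peak (vertical), on the left, and by their widths in bp on log axes, on the right; colour gives the number of pairs per cell and dashed lines mark equality. Most pairs lie above both lines, and the densest cells hold a high H3K4me1 percentile with an upper-middle H3K27ac percentile.

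The pairs at the corners of this distribution had different shapes. In 3887 pairs (9.38%) both peaks were at percentile 75 or above, and of these 42.4% were staggered, 36.6% had H3K4me1 inside and 20.9% had H3K27ac inside. In 4685 pairs (11.3%) an H3K27ac peak below percentile 25 met an H3K4me1 peak at percentile 75 or above, and in 87.7% of those H3K27ac lay inside. The reverse, a strong H3K27ac peak with a weak H3K4me1 peak by the same limits, occurred in 436 pairs (1.05%). Of these, 66.3% had H3K4me1 inside, and the H3K27ac summit fell in that H3K4me1 peak in 7.34%. Their H3K27ac peaks had a median width of 3602.5 bp, and the summit could lie in another H3K4me1 peak. H3K27ac peaks with an H3K4me1 partner and away from H3K4me3 were also counted once each. The summit lay in some H3K4me1 peak in 98.5% at percentile 75 to below 90. From percentile 90 the share was 98.8%.

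Nesting changed with H3K27ac strength, which itself went with width. When the pairs were divided into 10 deciles by H3K27ac signal value, the share with H3K27ac inside fell from 70.6% in the weakest decile to 60.7% in the fifth, 34.1% in the eighth and 11.4% in the strongest. The share with H3K4me1 inside went from 0.748% to 49.8%. Median H3K27ac width went from 306 to 4068 bp over the same deciles, against 1438 to 1875 bp for H3K4me1, and the widths were alike in the eighth decile, at 1611 and 1604 bp. By deciles of H3K4me1 signal value the share with H3K27ac inside rose from 13.9% to 73.4%, as H3K4me1 width went from 433 to 3769 bp and H3K27ac width from 570 to 1086 bp.

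How pairs are counted bears on that turn, because a wide H3K27ac peak over several H3K4me1 peaks enters once for each. Among pairs whose peaks had no other partner, the share with H3K27ac inside fell only to 37.3% in their strongest decile and stayed above the 26.0% with H3K4me1 inside. With peaks of the same mark less than 1000 bp apart joined, the values in the strongest decile were 40.8% and 23.7%. The fall of H3K27ac-inside pairs from weakest to strongest was thus present in all 3 of these counts, while the lead of H3K4me1-inside over H3K27ac-inside pairs in the strongest decile was found in all pairs and not among sole partners or joined peaks. When sole partners were sorted by the H3K27ac deciles of all pairs, the strongest decile held 33.8% with H3K27ac inside, 36.3% staggered and 29.9% with H3K4me1 inside. By the same deciles the ratio of H3K4me1 to H3K27ac width went from 2.75 in the weakest decile, with medians of 929 and 308 bp, to 1.03 in the strongest, with medians of 3132 and 2976 bp. Sole partners with H3K27ac from 1000 to below 2000 bp wide were also split by H3K27ac percentile. H3K27ac lay inside in 47.6% of 800 pairs below percentile 50. The share was 45.4% of 2789 from 50 to below 75, and 34.0% of 291 from 75 to below 90. H3K4me1 lay inside in 17.6%, 18.2% and 25.1%. Only 4 pairs stood higher. The parts of strength and width in the nesting were not tested.

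**Figure D2:**
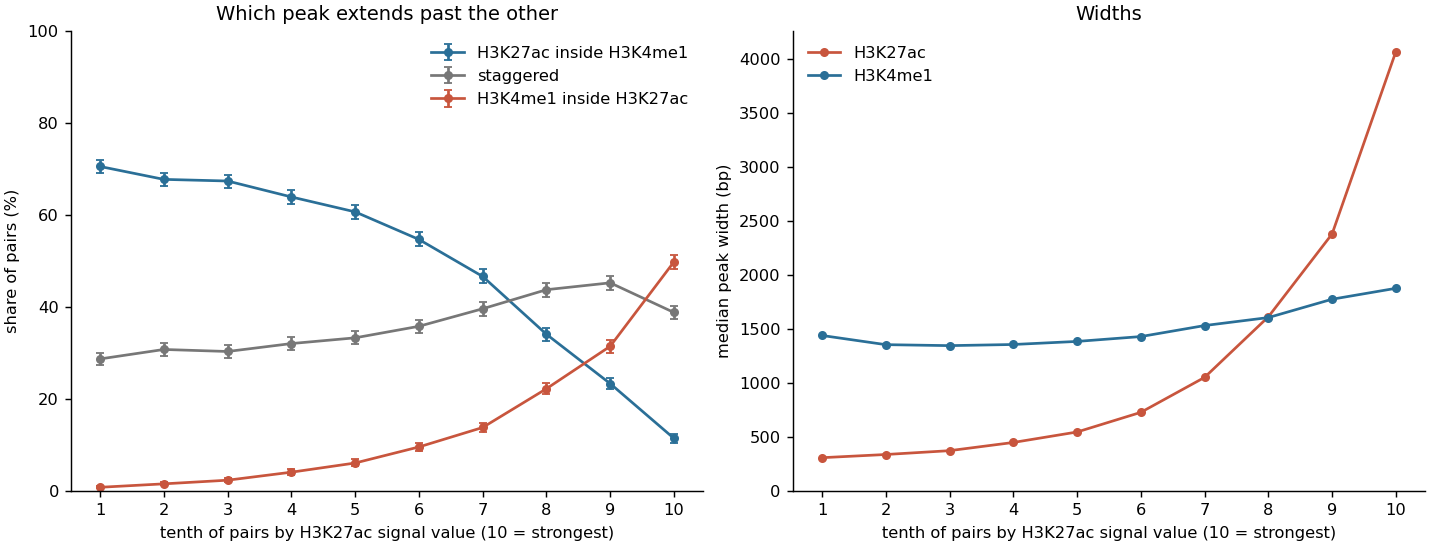
Left, share of pairs in each nesting class (%, vertical) by decile of pairs ranked on H3K27ac signal value (horizontal, 10 strongest), with 95% Wilson intervals; right, median peak width in bp by the same deciles. H3K27ac-inside pairs fall from 70.6% to 11.4% while the H3K27ac width passes the H3K4me1 width at the eighth decile.

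Most groups of linked peaks were couples of 1 peak of each mark, though these couples made up 46.4% of pairs. The pairs formed 28489 groups of linked peaks, of which 19213 (67.4%) held 1 peak of each mark. Another 5313 groups (18.6%) had several H3K27ac peaks on 1 H3K4me1 peak, 2893 (10.2%) had 1 H3K27ac peak over several H3K4me1 peaks, and 1070 (3.76%) had several of each. Counted by peaks, 88.9% of the H3K27ac peaks had 1 partner, 9.02% had 2 and 2.10% had at least 3, against 80.6%, 16.5% and 2.88% of the H3K4me1 peaks. The most partners of a single peak were 10 for H3K27ac and 11 for H3K4me1.

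The highest points of the 2 marks lay close together but seldom at the same base. A summit is the position in a peak where the peak caller found the most signal, and the median distance between the 2 summits of a pair was 295.5 bp (288 to 303, quartiles 83 and 691, SD 17.1 over chromosomes). Summits were within 50 bp in 15.9% of pairs, within 150 bp in 37.4%, within 500 bp in 63.2% and within 1000 bp in 84.3%, and 72 pairs had the same summit position. Neither direction was favoured, the median signed distance being 1 bp (-1 to 4). Sole partners were closer, with a median of 142 bp (138 to 145) and 51.8% within 150 bp.

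The distances were not spread evenly around 0. Pairs became fewer with distance down to 2561 in the 100-bp bin from 300 bp, rose to 2770 in the bin from 400 bp and 2807 in that from 500 bp, and then fell to 1618 in that from 700 bp. The bin from 500 bp held more pairs than the bin from 300 bp on 18 of the 23 chromosomes. In pairs with further partners the corresponding numbers were 1121, 1495, 1804 and 1196. Among sole partners the shoulder was seen where H3K27ac was at least 1000 bp wide, with 378, 487, 494 and 228 of 5852 pairs, and not where it was narrower, with 1062, 788, 509 and 194 of 13361. Sole partners with an H3K4me1 peak of at least 1000 bp also showed a rise, with 837, 958, 839 and 380 of 11433. Pairs in which each summit lay inside the other peak showed none, with 963, 940, 834 and 347 of 22721. The bins were chosen after the distances had been plotted.

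**Figure D3:**
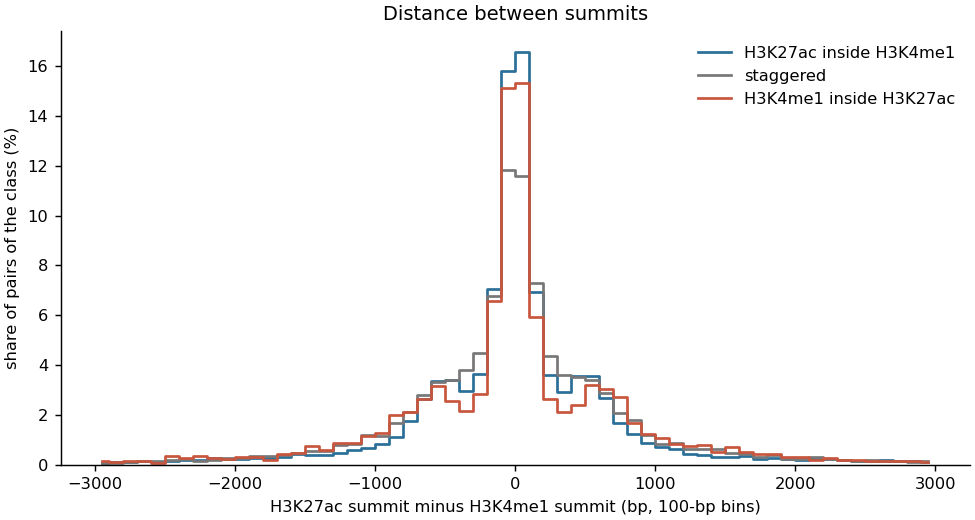
Position of the H3K27ac summit minus that of the H3K4me1 summit (bp, horizontal, 100-bp bins) as a share of the pairs of each nesting class (%, vertical). All 3 classes peak within 100 bp of 0 and are symmetric, and both nested classes show a shoulder near 500 bp on each side.

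By nesting class the median summit distance was 247 bp with H3K27ac inside, 335 bp with H3K4me1 inside and 350 bp in staggered pairs. By decile of H3K27ac signal value it went from 299 bp in the weakest to 208 bp in the sixth and 715 bp in the strongest. Among sole partners it was 156 bp in the weakest of these deciles, 121 bp in the sixth and 206.5 bp in the strongest. Strong H3K4me1 peaks also had distant summits, 582.5 bp in their strongest decile against 233 bp in the weakest. Median H3K4me1 width was 3769 bp in that strongest decile and 433 bp in the weakest. Pairs with several H3K27ac peaks on 1 H3K4me1 peak had a median summit distance of 504 bp, against 142 bp for sole partners. The parts of strength, width and partner number were not tested.

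The H3K27ac summit fell inside the H3K4me1 partner in 82.6% of pairs (82.2 to 83.0, SD 3.76), and the H3K4me1 summit inside the H3K27ac partner in 66.1%. Both held in 54.8% and neither in 6.11%. Summits that fell inside the partner kept towards its middle: 26.9% of the H3K27ac summits inside an H3K4me1 peak were in the middle 20% of that peak, and 8.93% in the outer 10% at its 2 ends. Within its own peak the H3K27ac summit was in the middle 20% in 39.7% and in the outer 10% at its ends in 0.987%.

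Counted once per paired H3K27ac peak, with all its H3K4me1 partners together, the acetylated summit nearly always lay in an H3K4me1 peak. Each peak counted overlapped H3K4me1 by the rule, which favours such a summit where the H3K27ac peak is narrow. H3K27ac peaks without an H3K4me1 partner were not counted. The summit lay inside a partner in 94.2% of the 36348 H3K27ac peaks (93.9 to 94.4, SD 1.49), and 57.1% of the peaks were covered by H3K4me1 from end to end. From the weakest to the strongest decile of these peaks the share of summits inside H3K4me1 went from 91.3% to 98.0%, while the share of peaks with both edges inside H3K4me1 went from 73.4% to 39.2%. The share with several H3K4me1 partners went from 1.68% to 46.6%. Median H3K27ac width went from 304 to 3098 bp over the same deciles. The strongest acetylated peaks, which were also wider, thus ran past H3K4me1 at their edges more often than the weakest did, and mostly kept their summit inside it. The parts of strength and width in this were not tested.

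Where 1 H3K27ac peak spanned several H3K4me1 peaks, the spaces between them were short and held few of the acetylated summits. The share of summits in spaces was not set against the share of peak length in them, so avoidance was not tested. The 4041 such H3K27ac peaks had a median width of 2338 bp and a median of 84.1% covered, and the 5094 spaces between neighbouring partners had a median of 177 bp (quartiles 99 and 279). The H3K27ac summit lay inside a partner in 91.5% of them, in a space between partners in 7.40% (299 peaks) and outside all partners in 1.06%. The reverse arrangement was alike: of 6521 H3K4me1 peaks with several H3K27ac partners, 85.8% had the H3K4me1 summit inside one, 8.48% in a space between them and 5.69% outside, and the 7859 spaces had a median of 182 bp.

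The H3K27ac peaks at H3K4me3 showed another arrangement. For this comparison each H3K27ac peak with any H3K4me1 partner was counted once, and 36198 peaks had no H3K4me3 on themselves or on any partner, while 18385 overlapped H3K4me3. Another 3571 did not overlap H3K4me3 but had an H3K4me1 partner that did, and their summit lay inside H3K4me1 in 97.5%. The H3K27ac summit lay inside H3K4me1 in 94.4% of the peaks away from H3K4me3 (94.2 to 94.6) and 43.7% of those over it (42.9 to 44.4). The gap was small for weak H3K27ac peaks and wide for strong ones. Below percentile 25 of the H3K27ac list the shares were 91.6% and 87.6%, and from percentile 90 they were 98.8% (419 of 424) and 20.0% (1160 of 5796). At like widths they also stood apart, with 95.4% and 37.6% for peaks from 1000 to below 2000 bp, 97.7% and 28.6% from 2000 to below 4000 bp, and 98.3% and 42.4% for 4000 bp or more. H3K4me1 also covered less of the H3K27ac peaks over H3K4me3. The median percent of the peak covered was 97.4% and 48.7%, 93.7% and 45.9%, and 93.8% and 68.3% in the same bands. The part of this cover in the summit shares was not tested.

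Among H3K27ac peaks with several H3K4me1 partners, the summit fell in a space between them in 7.40% away from H3K4me3 (6.63 to 8.25, 298 of 4025) and in 63.2% over H3K4me3 (62.1 to 64.2, 4924 of 7795). From percentile 90 of the H3K27ac list these shares were 0.993% (3 of 302) and 72.0% (2709 of 3763). Over all H3K27ac peaks in that band, with any number of partners, H3K4me1 covered a median of 92.0% of the peak away from H3K4me3. Over H3K4me3 it covered 42.7%, so more of those peaks was open to an uncovered summit. The part of this cover in the shares was not tested. With every pair counted separately, the share of H3K27ac summits inside the H3K4me1 peak of the pair was 89.5% below percentile 25 of the list and 42.1% from percentile 90, because a summit can lie in only 1 of several partners. The 32169 pairs that touched H3K4me3 differed from the 41442 in the other measures too: H3K27ac was wider in 63.5%, the median summit distance was 1010 bp, and the rho between percentiles was -0.16. H3K27ac peaks at H3K4me3 were stronger, and none of these differences could be set against a spread between replicates.

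**Figure D4:**
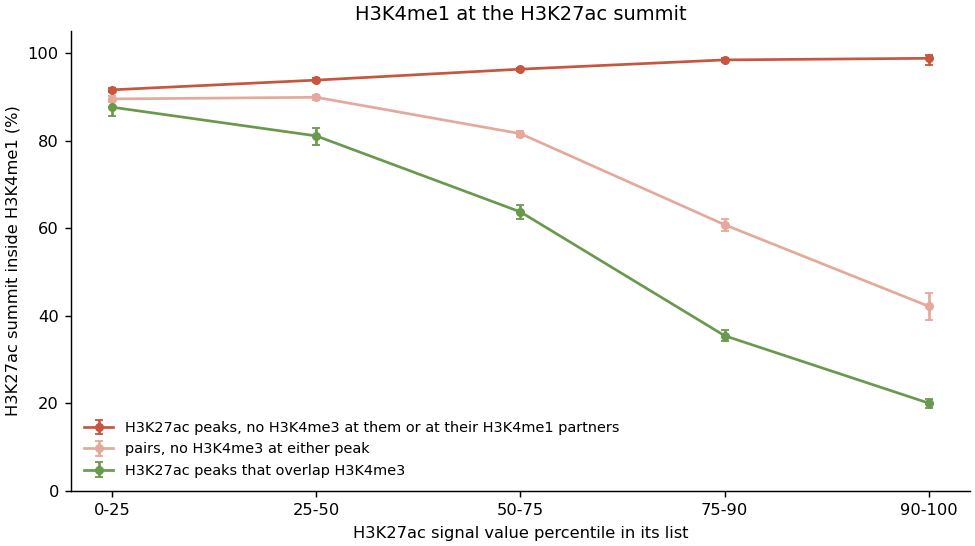
Share of H3K27ac summits inside H3K4me1 (%, vertical, 95% Wilson intervals) by the H3K27ac signal value percentile (horizontal), for H3K27ac peaks away from H3K4me3, for the same sites counted pair by pair, and for H3K27ac peaks over H3K4me3. Peak by peak the share goes from 91.6% to 98.8% away from H3K4me3 and from 87.6% to 20.0% over it. Only H3K27ac peaks with an H3K4me1 partner are counted.

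Peaks without a partner were narrower and weaker than paired ones. Paired H3K27ac peaks had a median width of 590 bp and a median percentile of 42.1, against 332 bp and 23.3 for the 5670 H3K27ac peaks that met neither H3K4me1 nor H3K4me3. Paired H3K4me1 peaks had a median width of 1305 bp and a median percentile of 73.7, against 540 bp and 39.0 for the 112508 that met neither other mark. Since a wide peak overlaps others more easily, the widths and the pairing rule cannot be told apart here. Pairs at the limit of the rule had narrow peaks. The 607 pairs that shared 1 to 50 bp had median widths of 490 bp for H3K27ac and 607 bp for H3K4me1. The 741 neighbours that missed each other by 0 to 49 bp had 492 and 635 bp.

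Distance from H3K4me3 went with modest differences. The median pair lay 17318 bp from the nearest H3K4me3 peak (quartiles 6270 and 42889 bp). The 3390 pairs within 2 kb had H3K27ac inside in 54.6% and H3K4me1 inside in 9.68%, and the 3697 pairs beyond 100 kb in 47.9% and 15.7%. The median H3K27ac percentile was 37.3 in the nearest band and 49.8 in the farthest, and the median H3K4me1 percentile stayed between 72.3 and 78.6 over the 5 bands. Median summit distance was between 254 and 310 bp.

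Chromosome X stood apart from the 22 autosomes. Of its 1032 pairs 31.6% had H3K27ac inside and 24.3% H3K4me1 inside, whereas the lowest autosome, chromosome 4, had 43.2% with H3K27ac inside and the highest, chromosome 22, had 60.6%. H3K4me1 peaks of X pairs had a median width of 959.5 bp against 1503 bp on autosomes, and H3K27ac peaks 828.5 against 686 bp. The median −log10 p-value was 11.7 against 20.9 for H3K4me1 and 19.4 against 15.9 for H3K27ac, and the part of these values in the nesting was not tested. On autosomes alone 50.5% of pairs had H3K27ac inside.

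Single sites show how these measures combine. Positions are in the GRCh37 build, counted from 1, and no gene annotation was used with them. The 3 pairs in which the weaker partner stood highest in its list lay on chromosomes 2 and 15. At chr2:114731318-114739700 the H3K27ac peak had a signal value of 59.5, at percentile 99.5, and met 5 H3K4me1 peaks, of which the strongest, at chr2:114730222-114735717, was staggered with it and had its summit 54 bp away. At chr2:20808408-20819679 the peaks were almost the same stretch, 11272 bp of H3K27ac in 11324 bp of H3K4me1 at chr2:20808372-20819695, with overhangs of 36 and 16 bp and summits 1 bp apart. At chr15:79279467-79291228 the H3K4me1 peak at chr15:79279663-79291905 was of like width and the summits were 50 bp apart.

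Other named pairs had partners of very unequal rank. The largest lead of H3K27ac over H3K4me1 in percentile was at chr2:175925555-175931152, where an H3K27ac peak at percentile 96.5 met an H3K4me1 peak of 305 bp at percentile 1.42 near its end, at chr2:175930750-175931054, and the summits were 3299 bp apart. The other 2 were on chromosome 12, at chr12:15777577-15784611 and chr12:50650925-50656266, with summits 1979 and 2023 bp apart. These H3K27ac peaks met 6, 4 and 3 H3K4me1 peaks, and in each case another of those held the H3K27ac summit. That other H3K4me1 peak stood at percentile 8.01 on chromosome 2 and at 90.6 and 92.1 on chromosome 12. The largest lead of H3K4me1 was at chr9:136743600-136756539, the strongest peak of the whole H3K4me1 list, with a signal value of 20.8. It met 6 H3K27ac peaks, of which the weak one at chr9:136747696-136748075 stood at percentile 0.26. Another of the 6 stood at percentile 88.6 and held the H3K4me1 summit. The next were the H3K4me1 peaks at chr11:69256420-69260616 and chr22:29417366-29421129, around H3K27ac peaks at chr11:69259617-69259974 and chr22:29420701-29421024. Each of these 2 H3K4me1 peaks also met a stronger H3K27ac peak, at percentile 64.9 and 73.3.

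The longest overhangs on both sides were at very wide peaks. The H3K27ac peak at chr19:39168389-39201553 was 33165 bp wide, spanned 6 H3K4me1 peaks, and ran past the one at chr19:39181579-39187980 by 13190 and 13573 bp. At chr17:56453075-56476588 H3K27ac ran past H3K4me1 at chr17:56464104-56468873 by 11029 and 7715 bp, yet the summits were 224 bp apart. In the opposite sense, the H3K4me1 peak at chr17:55598105-55616969 was 18865 bp wide, met 6 H3K27ac peaks, and ran past the one at chr17:55607015-55607474 by 8910 and 9495 bp. The H3K4me1 peaks at chr20:56151402-56169437 and chr5:149885415-149902132 were of the same kind, with 7 and 6 H3K27ac partners.

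The longest summit distances among the named pairs were 14941 bp at chr5:175271632-175288500, 13924 bp at chr3:32883387-32896508 and 13732 bp at chr10:80853110-80868657, all given as the H3K4me1 peak. On chromosome 3 the H3K27ac partner at chr3:32894916-32902521 was staggered and neither summit lay in the other peak, while the H3K4me1 peak on chromosome 10 met 11 H3K27ac peaks. At the other extreme, strong partners with summits within 50 bp included chr3:148316572-148322903, an H3K27ac peak at percentile 99.4 around H3K4me1 at chr3:148318985-148320080, at percentile 98.6, with 27 bp between summits. On chromosome 19 the H3K27ac peak at chr19:39887674-39894967 and the H3K4me1 peak at chr19:39891270-39895296 had summits 20 bp apart, and on chromosome X the peaks at chrX:70441235-70450400 and chrX:70441255-70451701 had summits 2 bp apart.

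**Figure D5:**
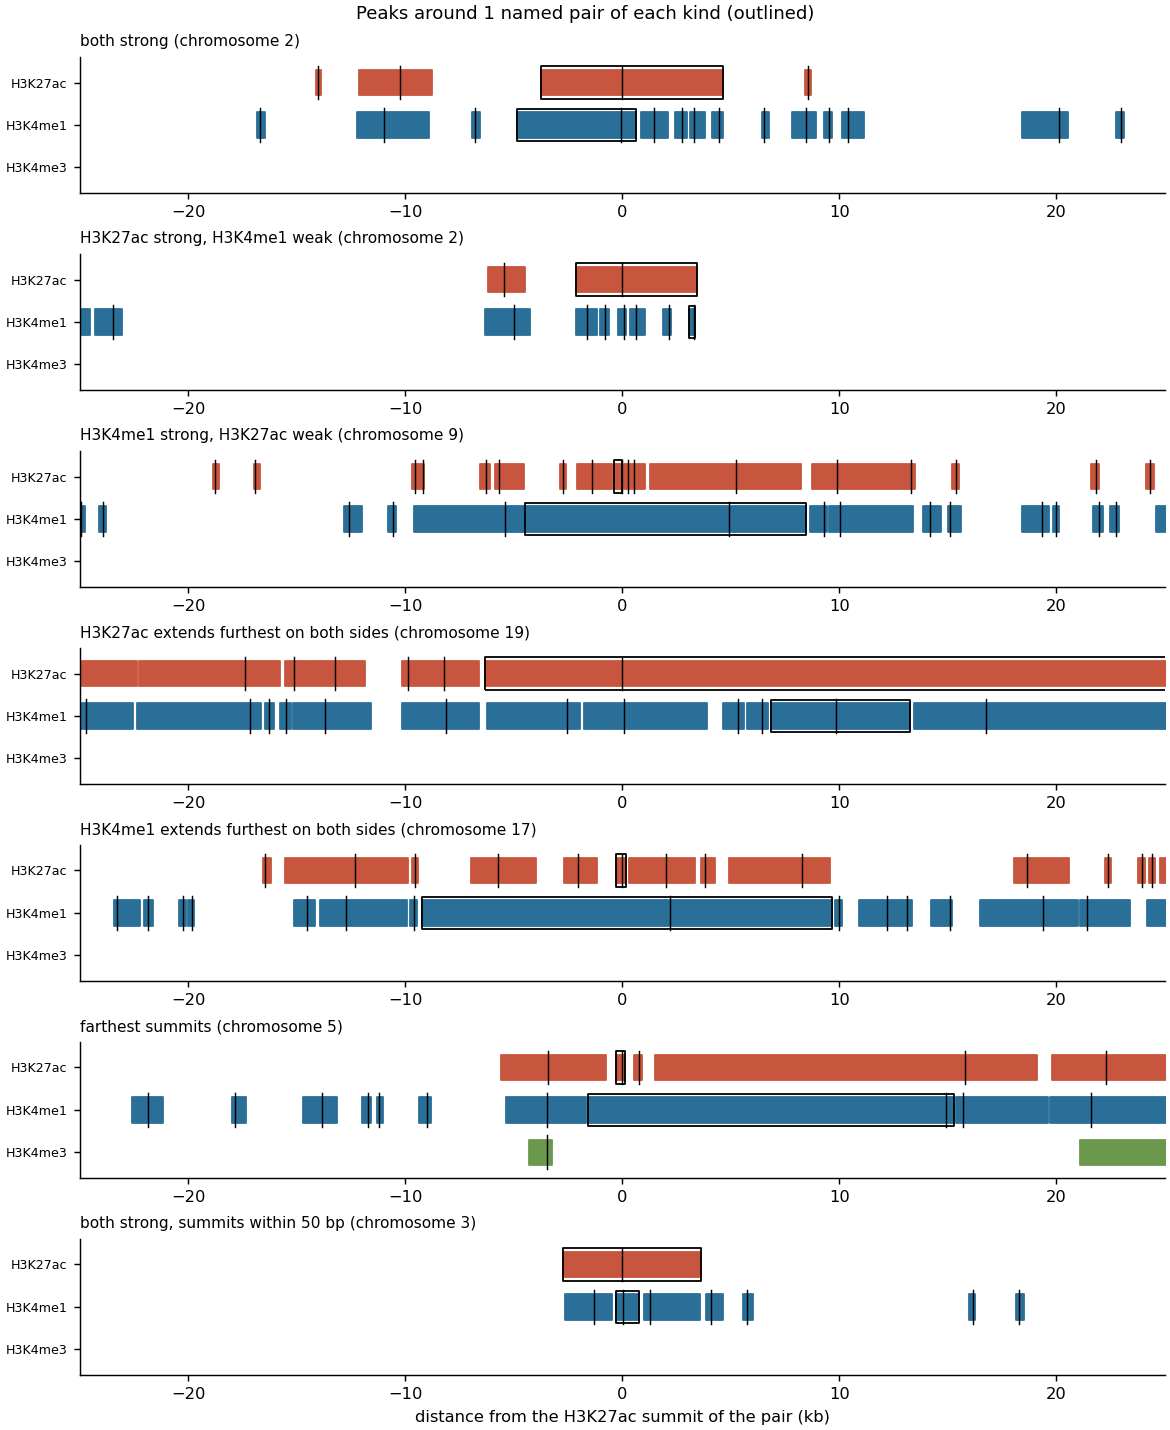
Peaks of each mark (bars, to scale) and their summits (vertical lines) within 25 kb of the H3K27ac summit of the first pair under each naming rule, with that pair outlined and the distance in kb on the horizontal axis. The strong H3K27ac peak on chromosome 2 and the strong H3K4me1 peak on chromosome 9 each overlap several peaks of the other mark; the H3K27ac peak on chromosome 19 runs past the plotted window.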

How the data were processed

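The 3 replicate libraries per mark had been pooled by the authors, going by the names of the deposited lists. The submitters' processing notes name MACS2 and hg19, with no role, version or threshold. The deposited columns used were each peak's start, end, signal value (authors' own, its reference not stated), −log10 p-value and −log10 q-value, and the summit offset. No peak overlapped another of its list. Per the labels' protocols 300 ng of sheared DNA was used per immunoprecipitation and reads were paired, of 51 bp.

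Peaks on chromosomes 1 to 22 and X were intersected and the signal value was ranked within each list, ties (50.6% of H3K27ac and 87.9% of H3K4me1 peaks) taking their mean rank. The overlap code was tested on simulated data. Analyses used Python 3.11.15, numpy 2.4.6, pandas 2.3.3 and scipy 1.17.1, with matplotlib 3.10.9 for plots.

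The 21 named pairs were the first 3 under each of 7 rules, leaving out chromosome 8 and naming a peak once. The rules took the highest lower percentile of the partners, the largest percentile lead of either mark, the largest smaller overhang of either mark, the farthest summits, and the highest lower percentile with summits within 50 bp. The part of the rule that needed gene annotation or sequence of the build was not applied. The pairs, measures and alternatives were chosen with earlier results of these data known. The alternatives kept only peaks whose −log10 q-value reached 5, or the stronger 50% of every list, or 24446 peaks per list, or used sharing 50% of the narrower peak, sole partners, peaks joined within 1000 bp, no H3K4me3 within 2000 bp, and autosomes only. For strength alone, ranks of the −log10 p-value were also used.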

Additional observations from a re-analysis of the deposited data

Results flagged for a closer look

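Chromosome Y was left out of the main set and held 52 pairs by the same rule, from 40 H3K27ac and 46 H3K4me1 peaks, which is above the 3 that a count of 0 allows. They are listed here because they are signal in data outside the comparisons. H3K27ac lay inside H3K4me1 in 16 of them and H3K4me1 inside H3K27ac in 12, and 24 were staggered. The H3K27ac summit lay inside the H3K4me1 peak in 35, and the median summit distance was 388.5 bp.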

How the results depend on the processing

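Of 81 values recomputed over 10 results, 29 stayed within the limits set around the reported value and 52 moved. The limits were its interval or spread, or for the number of pairs a 1.5-fold change. The rho kept its sign, and the shares of wider H3K27ac peaks and of summits inside H3K4me1 kept their side of 50%, under each alternative run. The order of the nesting classes did change: staggered pairs led over H3K27ac-inside pairs, 43.2% to 35.0%, in the stronger 50% of each list, and 40.1% to 39.2% with an equal number of peaks. The alternatives with fewer peaks or pairs do so by construction; otherwise the cause was not tested. Values follow the order −log10 q-value of at least 5, stronger 50% of each list, equal number of peaks, 50% of the narrower peak shared, sole partners, peaks joined, no H3K4me3 within 2000 bp and autosomes only. The share with the wider H3K27ac peak was 32.2%, 46.2%, 42.0%, 27.9%, 20.8%, 18.9%, 29.5% and 28.6%. H3K4me1 lay inside in 16.2%, 21.7%, 20.7%, 15.3%, 10.2%, 9.69% and 14.5% under the first 7. Under the first 6, H3K27ac lay inside in 48.6%, 35.0%, 39.2%, 54.1%, 55.3% and 63.0%, and its summit lay in the paired H3K4me1 peak in 84.2%, 76.4%, 85.3%, 87.9%, 94.0% and 94.6%. Median summit distance was 467 bp (stronger 50%), 426 bp (equal number), 258 bp (50% shared), 142 bp (sole partners) and 310 bp (joined). The number of pairs was 21356 (stronger 50%), 5175 (equal number), 19213 (sole partners) and 21204 (joined). The rho between percentiles was 0.38 for sole partners, 0.31 for joined peaks and 0.25 with ranks of the −log10 p-value. Peak by peak, only H3K27ac peaks with an H3K4me1 partner were counted. The H3K27ac summit lay in any H3K4me1 peak in 96.5% (q-value), 93.7% (stronger 50%), 93.8% (equal number), 96.8% (50% shared) and 96.0% (joined). From percentile 90 of H3K27ac it did so away from H3K4me3 in 89.7% (stronger 50%) and 92.7% (equal number). Over H3K4me3 it did so in 18.6% (q-value), 7.92% (stronger 50%), 25.3% (equal number), 25.3% (50% shared), 11.5% (sole partners) and 22.8% (joined). These last 3 results were added after the data were seen.

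No paired analysis was possible because the replicates of each mark were pooled in 1 list. No replicate was left out for the same reason. The depth of the libraries is unknown.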
